A study of Mus musculus with 18 samples.

Results

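The DNA replication licensing genes examined here are Mcm2, Mcm3, Mcm4, Mcm5, Mcm6, Mcm7, Mcm10, Cdc6, Cdt1 and Pcna. They were chosen by name, and their values were read from the array probe sets whose gene symbol is one of these names. All 10 were found among the 19938 genes that the array names singly, on 11 probe sets, because Pcna has 2 and the brighter was used. The arrays hold RNA from cells of mouse small intestinal crypts, separated by flow sorting on how brightly they showed a Venus reporter of Flattop (Fltp), a planar cell polarity gene. The mice were C57Bl6/J, 4 months old, with the genotype FltpZV/+, and the gates were reporter-negative, reporter-low and reporter-high. Cells of each gate came from mice carrying the same reporter allele, so none of these arrays represents mice without it. Each gate had 2 arrays, each made from a pool of 2 animals, and whether the gates of a number came from the same animals is not stated. The 12 arrays of a lineage-tracing line in the same series were not analysed here.

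Licensing is the loading of the replicative helicase onto origins before S phase. The origin recognition complex recruits Cdc6 and Cdt1, which load a ring of the products of Mcm2 to Mcm7 onto DNA, while geminin (Gmnn) blocks Cdt1 after S phase has begun. Mcm10 helps to activate the loaded helicase, and Pcna is the sliding clamp that holds DNA polymerases at the fork. In the intestine, dividing cells lie in the crypt, where transit-amplifying cells cycle rapidly, and the E2F factors that drive entry into S phase regulate many of these genes.

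Promoter windows from RefSeq (build GRCm38.p6) are shown as a description of the members, and any part of these letters in the changes between gates was not tested. Windows were found for 9 of the 10 genes, not for Mcm4, 10 windows in all, and the 250 bases before each start site were searched on both strands. An E2F-like match was any of the letters TTTCCCGC, TTTCGCGC, TTTGCCGC or TTTGGCGC, where matches may overlap. Such a match was present in 4 of the 10 windows, those of Mcm5, Mcm6, Cdc6 and 1 of the 2 windows of Mcm7. It was present in 1.86% of all 32851 windows in the table and in 18.8% of 112 windows of the other replication genes described below. Each of the 4 stretches is given 5′ to 3′ on the gene's strand, with the E2F-like letters in capitals.
Mcm5 (chr8:75109312-75109411, plus strand): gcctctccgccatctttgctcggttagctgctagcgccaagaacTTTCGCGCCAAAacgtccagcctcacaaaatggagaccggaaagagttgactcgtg
Mcm6 (chr1:128359731-128359830, minus strand): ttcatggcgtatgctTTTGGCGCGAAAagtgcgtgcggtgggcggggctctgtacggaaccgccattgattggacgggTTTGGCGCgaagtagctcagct
Cdc6 (chr11:98907967-98908066, plus strand): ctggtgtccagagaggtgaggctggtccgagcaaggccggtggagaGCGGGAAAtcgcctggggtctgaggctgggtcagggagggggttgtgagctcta
Mcm7 (chr5:138171995-138172094, minus strand): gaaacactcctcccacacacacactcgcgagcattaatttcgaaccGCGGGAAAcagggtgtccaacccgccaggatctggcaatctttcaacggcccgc
In Mcm5 and Mcm6 overlapping matches on both strands form the same 12 bases, TTTCGCGCCAAA, read forward in Mcm5 and as its reverse complement TTTGGCGCGAAA in Mcm6. These letters lay at bases -153 to -142 before the start site of Mcm5 and -110 to -99 before that of Mcm6. They occurred in 4 of the 32851 windows, those of Mcm5, Mcm6, Msh3 and Mycn, a search chosen after the stretches had been seen. The CCAAT box was present in 8 of the 10 windows, in 33.8% of all windows and in 44.6% of those of the other replication genes. The GC box GGGCGG was present in 7, in 32.7% of all and in 66.1% of the other replication windows. The letters TTTGAA, the cell cycle homology region, were present in 1, in 16.0% and in 17.0%. A match describes the letters of a window and was not tested as a binding site.

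Signals are log2 values made by robust multi-array averaging (RMA), so a difference of 1 is a change of 2-fold. Array medians lay between 4.54 and 4.74. The background level was 4.23, the 95th percentile of the mean signal of 1207 chemosensory receptor genes (olfactory, vomeronasal, trace amine), and 9 of the 10 members lay above it on each of the 6 arrays. Differences between gates were tested with limma over all 19938 genes, and a gene was called at a Benjamini-Hochberg adjusted p under 0.05. Across genes the 2 reporter-high arrays correlated at 0.946, the low arrays at 0.9752 and the negative arrays at 0.981. The 10 markers fixed for crypt epithelium, Epcam and Cdx2 among them, lay above background on each array. Their mean was at most 10.05 on negative, 9.60 to 9.62 on low and 8.84 to 9.52 on high arrays, and Krt20 fell in high cells. In sorted bulk samples, fewer dividing cells and less transcript per cell cannot be told apart.

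The licensing genes were brightest in the reporter-negative gate. Averaged over the 10 genes, with each gene centred on its own mean, the signal was 0.68 and 0.69 on the negative arrays, -0.48 and -0.29 on the low arrays and -0.23 and -0.37 on the high arrays. In low against negative cells, 5 of 10 members passed the test, Mcm2, Mcm5, Mcm6, Mcm10 and Cdc6, and each fell, where 2.54% of all genes were called lower. The median change of the 10 was -1.26, beside -0.03 over all genes. In high against negative cells 3 passed, Mcm4, Mcm5 and Mcm6, and each fell, where 3.35% of all genes were called lower. Over all genes that comparison held 272 calls higher and 667 lower, and 324 and 297 with quantile normalization. The median change of the 10 members there was -0.96, beside 0.10 over all genes. With quantile normalization these medians were -0.67 and 0.02. The 10 crypt epithelium markers had a median of -0.97 in high against negative cells, 8 below 0 and 2 above. The 6 enterocyte markers, each below 0, had -1.08, so a fall of that size was not particular to the members. In low against negative cells the medians of these 2 marker lists were -0.54 and -0.60. Low and high cells were compared with the same negative arrays, so these 2 comparisons are not independent.

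**Figure D1:**
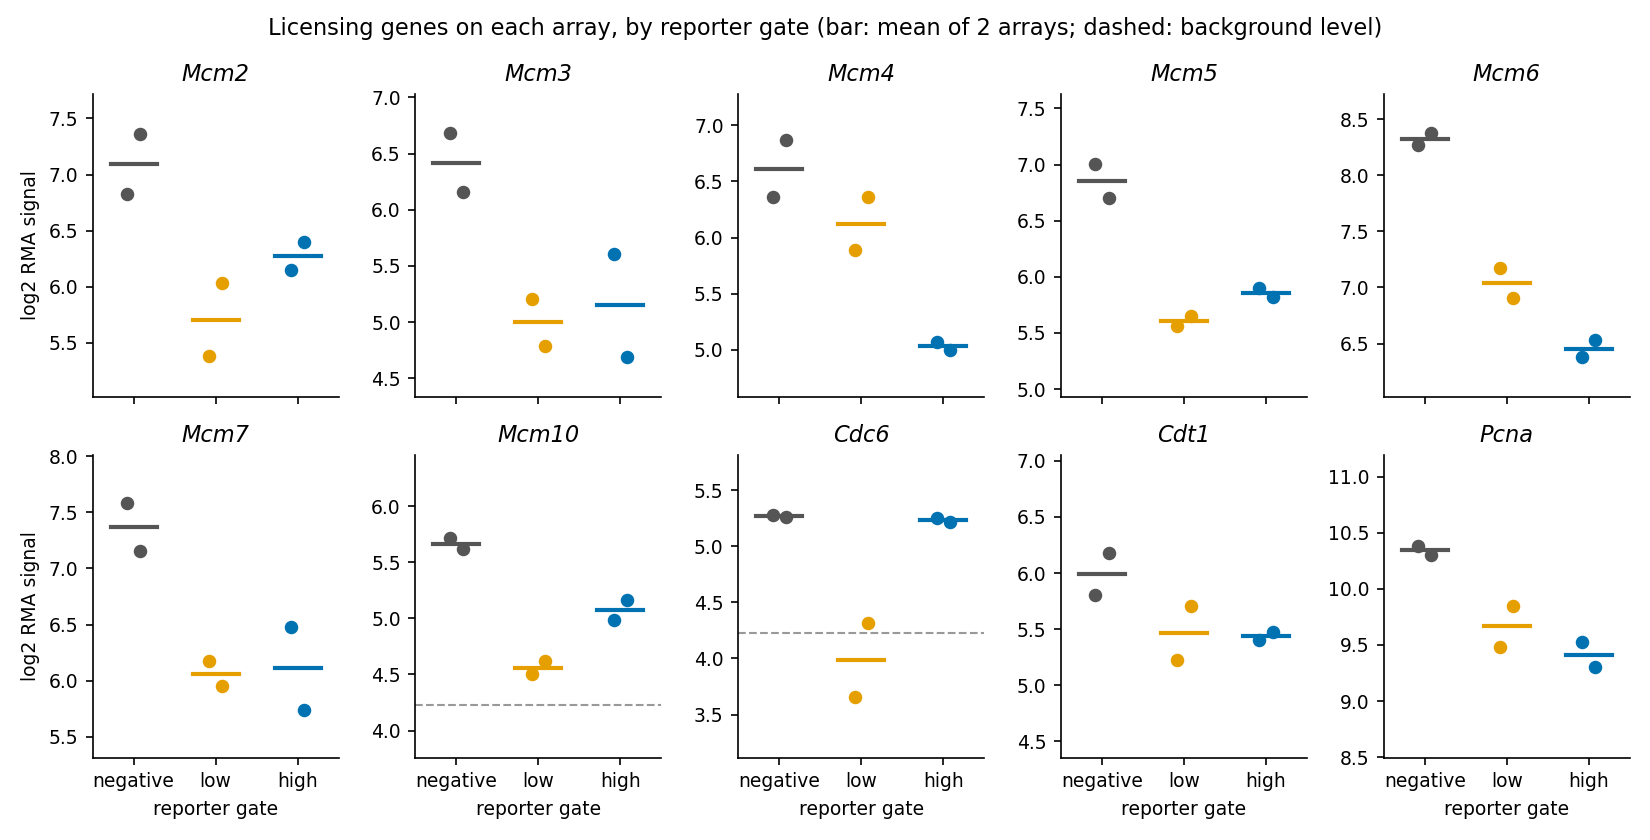
Log2 RMA signal of each licensing gene (y axis, each panel spanning the same range of log2 units) on the 2 arrays of the negative, low and high reporter gates (x axis); points are arrays, bars are means of 2 arrays and the dashed line is the background level of 4.23. The negative arrays lie highest in each panel, and Cdc6 is low in the low gate but at 5.22 and 5.26 in the high gate.

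For each of the 10 genes both negative arrays lay above both low arrays. Both also lay above both high arrays. Gates did not overlap in that direction for 28.5% of all genes in low against negative cells and for 22.4% in high against negative cells. The space between the nearest arrays was not alike across genes. In low against negative cells it ranged from 0.0005 for Mcm4 to 1.10 for Mcm6. In high against negative cells it ranged from 0.0012 for Cdc6 to 1.74 for Mcm6.

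Mcm6, a subunit of the helicase ring, had the largest difference among the members in high against negative cells. Its signal was 8.27 and 8.37 on the negative arrays, 7.17 and 6.91 on the low arrays and 6.38 and 6.53 on the high arrays. The 3 gates did not overlap, and their order was negative, low, high. Mcm6 fell by 1.28 ± 0.19 (SE) in low cells, or 2.43-fold (limma adjusted p = 0.0138). It fell by 1.86 ± 0.19 in high cells, or 3.64-fold (limma adjusted p = 0.00976). The difference between high and low, -0.58 ± 0.19, did not pass (limma adjusted p = 0.147).

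Mcm4, which lies next to Mcm6 in the ring, was set apart by the high gate. It read 6.36 and 6.87 on the negative arrays, 5.89 and 6.36 on the low arrays and 5.07 and 5.0 on the high arrays. Low replicate 2 and negative replicate 1 differed by 0.0005, and both high arrays lay below the other 4. Mcm4 fell by 1.58 ± 0.25 in high cells, or 2.98-fold (limma adjusted p = 0.0241). In low cells it differed by -0.49 ± 0.25 from the negative gate (limma adjusted p = 0.395), and the 95% interval ran from -1.09 to 0.11. High minus low was -1.09 ± 0.25, 95% interval -1.69 to -0.48 (limma adjusted p = 0.0649).

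Mcm5, another ring subunit, fell in both reporter-positive gates. Its signal was 7.01 and 6.70 on the negative arrays, 5.56 and 5.65 on the low arrays and 5.90 and 5.82 on the high arrays. The low and high pairs were tight, with SDs of 0.07 and 0.05, and lay below both negative arrays. Mcm5 fell by 1.24 ± 0.19 in low cells (limma adjusted p = 0.0158) and by 0.99 ± 0.19 in high cells (limma adjusted p = 0.0393). High minus low was 0.25 ± 0.19 (limma adjusted p = 0.447). Mcm5 and Mcm6 were the members called lower in both comparisons.

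Mcm2, the ring subunit that also binds histones, read 6.83 and 7.36 on the negative arrays, 5.38 and 6.03 on the low arrays and 6.15 and 6.40 on the high arrays. The high arrays lay between the other gates with no overlap. Mcm2 fell by 1.39 ± 0.29 in low cells (limma adjusted p = 0.0418) and differed by -0.82 ± 0.29 in high cells (limma adjusted p = 0.166). High minus low was 0.57 ± 0.29, 95% interval -0.13 to 1.26 (limma adjusted p = 0.294).

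Mcm3 and Mcm7, the remaining subunits of the ring, did not pass the test and were spread widely in the high gate. Mcm3 read 6.68 and 6.16 on the negative arrays, 5.20 and 4.79 on the low arrays and 5.61 and 4.69 on the high arrays. Mcm7 read 7.58 and 7.16 on the negative arrays, 6.17 and 5.95 on the low arrays and 6.48 and 5.74 on the high arrays. In both genes the 2 high arrays enclosed both low arrays, with SDs in the high gate of 0.65 for Mcm3 and 0.52 for Mcm7. Mcm3 differed from the negative gate by -1.42 ± 0.35 in low cells (limma adjusted p = 0.0679) and by -1.27 ± 0.35 in high cells (limma adjusted p = 0.0981). Mcm7 differed by -1.31 ± 0.29 (limma adjusted p = 0.0513) and by -1.26 ± 0.29 (limma adjusted p = 0.0634).

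Among the loading factors, Cdc6 separated the low gate from the other gates. It read 5.27 and 5.26 on the negative arrays, 3.66 and 4.31 on the low arrays and 5.26 and 5.22 on the high arrays. Low replicate 1 lay below the background level, so Cdc6 was above it on 1 of 2 low arrays. Cdc6 fell by 1.28 ± 0.25 in low cells (limma adjusted p = 0.0309). In high cells it differed from the negative gate by -0.03 ± 0.25, 95% interval -0.61 to 0.56 (limma adjusted p = 0.953). It was 1.25 ± 0.25 higher in high than in low cells, or 2.38-fold (limma adjusted p = 0.0395), the only member called in that comparison, where 1.01% of all genes were called higher and 3.89% lower (202 and 776 genes, and 326 and 616 with quantile normalization).

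Cdt1, the partner of Cdc6 in loading the ring, differed less. It read 5.80 and 6.18 on the negative arrays, 5.23 and 5.71 on the low arrays and 5.40 and 5.47 on the high arrays. Low replicate 2 came within 0.10 of negative replicate 1. Cdt1 differed from the negative gate by -0.52 ± 0.24 in low cells, 95% interval -1.09 to 0.04 (limma adjusted p = 0.315). In high cells the difference was -0.56 ± 0.24, 95% interval -1.12 to 0.01 (limma adjusted p = 0.233).

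Mcm10, which acts after loading, followed the order negative, high, low. It read 5.71 and 5.62 on the negative arrays, 4.50 and 4.62 on the low arrays and 4.99 and 5.16 on the high arrays. The 3 gates did not overlap. Mcm10 fell by 1.10 ± 0.18 in low cells, or 2.15-fold (limma adjusted p = 0.0188), and differed by -0.59 ± 0.18 in high cells (limma adjusted p = 0.122). High minus low was 0.51 ± 0.18 (limma adjusted p = 0.168).

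Pcna, the sliding clamp, read 10.39 and 10.30 on the negative arrays, 9.49 and 9.85 on the low arrays and 9.53 and 9.30 on the high arrays. The negative arrays were highest, and the low and high arrays overlapped. Pcna differed from the negative gate by -0.67 ± 0.21 in low cells (limma adjusted p = 0.129) and by -0.93 ± 0.21 in high cells (limma adjusted p = 0.0564). Its other probe set lay 0.09 to 0.12 lower on each array and gave differences of -0.69 and -0.93.

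**Figure D2:**
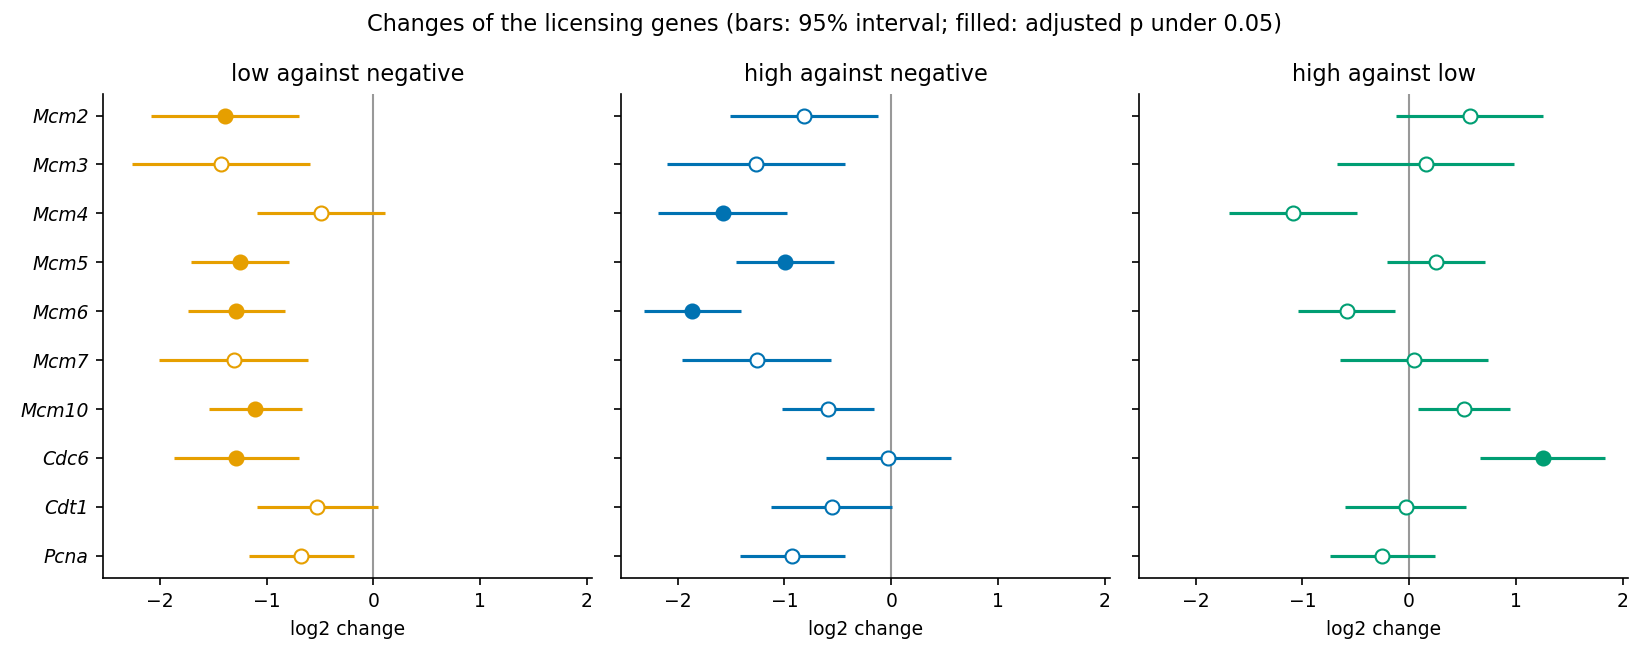
Log2 change (x axis) of each licensing gene (y axis) in low against negative, high against negative and high against low cells; points are limma estimates from 2 arrays a gate, bars are 95% intervals and filled points passed an adjusted p of 0.05. In the first 2 comparisons the 10 estimates lie below 0, from -1.42 to -0.49 and from -1.86 to -0.03, and in the third they lie on both sides, from -1.09 for Mcm4 to 1.25 for Cdc6.

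Between the reporter-positive gates the members did not shift one way. In high against low cells 6 were higher and 4 lower, with a median of 0.10, beside 0.13 over all genes. The high arrays lay above both low arrays for Mcm2, Mcm5, Mcm10 and Cdc6 and below both for Mcm4 and Mcm6, while the gates overlapped for Mcm3, Mcm7, Cdt1 and Pcna. Gates did not overlap for 35.3% of all genes with high above low and for 20.4% with high below low. For these 4 overlapping genes the order of low and high is not settled by the arrays. Of the members without overlap Cdc6 alone was called, a call that depended on single arrays. The lack of overlap by itself does not settle the order of the others.

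Calls were lost when single arrays were left out. Each such fit leaves a gate with a lone array, so a lost call there cannot be told apart from lost precision. The members' median change in low against negative cells was -1.26, and -1.09 and -1.19 without negative replicate 1 and 2. For high against negative cells it was -0.96, and -0.95 and -1.06 without them. In low against negative cells 0 of 10 members were called without negative replicate 1 (adjusted p of the lost calls from 0.104 to 0.186) and 0 without negative replicate 2 (adjusted p from 0.0753 to 0.243). Without low replicate 1 the remaining call was Mcm6 (the other adjusted p from 0.0889 to 0.182), and without low replicate 2 it was Cdc6 (the other adjusted p from 0.0666 to 0.0956). The call of Mcm2 was also lost with quantile normalization (adjusted p = 0.0646). In high against negative cells 0 members were called without negative replicate 1 (adjusted p of the lost calls from 0.0993 to 0.246) or without negative replicate 2 (adjusted p from 0.119 to 0.163). Without high replicate 2 the remaining call was Mcm6, while Mcm4 and Mcm5 were lost (adjusted p from 0.0633 to 0.0813), and without high replicate 1 Mcm3 and Mcm7 were called as well, 5 in all (adjusted p of these 2, 0.0249 and 0.0313). Mcm5 was also lost there without either low array (adjusted p = 0.0778) and, among the other settings, with the 2 gates fitted alone, a trended variance, quantile normalization or array weights (adjusted p up to 0.0877). Mcm3 and Mcm7 passed in low against negative cells without either high array, 7 called in all (adjusted p from 0.0226 to 0.029). The difference of Cdc6 between high and low kept its call without low replicate 2 and lost it without each of the other 5 arrays (adjusted p from 0.0637 to 0.161). The direction of the changes against the negative gate was the same in these fits for each member, except Cdc6 in high cells, at 0.0034 with quantile normalization.

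The other genes of replication were taken from 11 lists, 110 measured genes. Of these, 91 lay lower in low and 93 in high cells, beside 10938 and 8110 of all 19938 genes. Fewer passed the test. In low against negative cells 15 of 110 fell and 0 rose, with a median of -0.62. In high against negative cells 13 fell and 1 rose, with a median of -0.59. In high against low cells 2 rose, Rfc1 and Lin52, and 2 fell, Donson and E2f3, the last chosen after its values were seen. Over all genes 1.01% were called higher and 3.89% lower there, and the 2 lower calls were 1.82% of the 110. These counts do not set the replication genes apart from all genes in that comparison. As shares, 13.6% of these genes were called lower in low cells and 11.8% in high cells, beside the 2.54% and 3.35% of all genes. Clspn, Dbf4, E2f8, Mthfd1, Prim1, Shmt1 and Tyms were called lower in both. The counts also changed in fits without 1 array, which leave a gate with a lone array and less precision. In low against negative cells fewer of the 110 were called without any 1 of the negative or low arrays. In high against negative cells 0 were called without either negative array, 7 without either low array and 8 without high replicate 2. In high against low cells the 4 calls became 0 to 3 without 1 of the negative or low arrays or high replicate 2, and 8 without high replicate 1.

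Upstream of the ring, the 7 genes of the origin recognition complex and its partner Lrwd1 held 0 limma calls in either comparison, with medians of -0.20 and -0.27, and Orc6 alone had an unadjusted p under 0.05 in each. Orc6 had the largest difference, -1.04 in low cells (limma adjusted p = 0.216) and -1.24 in high cells (limma adjusted p = 0.133). Of 10 genes that control licensing, Skp2, of the ligase that marks Cdt1 for destruction, fell by 1.09 in low cells (limma adjusted p = 0.0403) and differed by -0.34 in high cells (limma adjusted p = 0.411). Geminin (Gmnn) had no low array above background and was lower there by at least 0.83 (limma adjusted p = 0.0741). Mcmbp, which binds the ring, differed by -0.0009 in low cells (limma adjusted p = 0.999) and by -0.66 in high cells (limma adjusted p = 0.1871). The homologues Mcm8 and Mcm9, which act in recombination, were dim. Mcm9, with no negative array above background, was at least 0.42 higher in low cells, a difference that did not pass (limma adjusted p = 0.114). The call of Skp2 was lost without either negative or either low array (adjusted p from 0.102 to 0.235).

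Downstream, origin firing genes fell in part. Of 13 such genes, Dbf4, the activating subunit of the kinase that fires origins, fell by 1.37 in low cells (limma adjusted p = 0.0283) and by 1.25 in high cells (limma adjusted p = 0.0454). Cdc45, a helicase cofactor, fell by 1.15 in low cells (limma adjusted p = 0.0277) and differed by -0.79 in high cells (limma adjusted p = 0.0942). Donson fell by 1.21 in high cells (limma adjusted p = 0.0396) and differed by -0.10 in low cells (limma adjusted p = 0.927). Donson was also lower in high than in low cells, by -1.12 (limma adjusted p = 0.0483). That last call was lost in 11 of 14 alternative fits (adjusted p from 0.0502 to 0.235). In low cells Cdc45 was lost without any 1 of the negative or low arrays (adjusted p from 0.0603 to 0.193), and Dbf4 was lost without low replicate 2 or either negative array, at an adjusted p from 0.116 to 0.192. In high cells Dbf4 was lost in 10 of 14 alternative fits (adjusted p from 0.0516 to 0.251) and Donson in 8 (adjusted p from 0.053 to 0.223).

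At the fork, 3 of 15 polymerase, primase and single-strand binding genes fell in low cells and 2 in high cells. Prim1, the catalytic primase subunit, fell by 1.89 in low cells (limma adjusted p = 0.01) and by 1.37 in high cells (limma adjusted p = 0.0364). Pole and Pola2, polymerase subunits, fell by 1.16 and 1.34 in low cells (limma adjusted p = 0.017 and 0.0203). Rpa3, of the single-strand binding complex, fell by 1.84 in high cells (limma adjusted p = 0.0313). Clspn, a mediator of the replication checkpoint, had no array above background in either reporter-positive gate and fell at least 1.53-fold in both (limma adjusted p = 0.0209 and 0.0396). Of 6 lagging strand genes, Rnaseh2c fell by 0.97 in high cells (limma adjusted p = 0.0331), and 0 of 8 chromatin assembly genes passed in either comparison. At an unadjusted limma p under 0.05 there were 5 of these 8 in low and 5 in high cells, Uhrf1 and Dnmt1 among them. The share of all genes at that unadjusted level was not counted, so these counts are not read as a result. The calls of Prim1, Pole, Pola2 and Clspn in low cells were lost without any 1 of the negative or low arrays (adjusted p from 0.0507 to 0.158). In high cells Prim1, Rpa3, Clspn and Rnaseh2c were lost without either negative array, among other fits (adjusted p of the lost calls from 0.0513 to 0.235).

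Of 9 clamp loader genes, whose products place Pcna on DNA or take it off, 7 lay lower in low and 8 in high cells, with medians of -0.24 and -0.59. Over all 19938 genes 10938 and 8110 lay lower, with medians of -0.03 and 0.10. Rfc4 fell 2.46-fold in low cells (limma adjusted p = 0.0454), and its call was lost in 6 of 14 alternative fits (adjusted p from 0.0586 to 0.26). Rfc1, the large subunit of the loader, went the other way in high cells. It read 6.37 and 6.54 on the negative arrays, 6.62 and 6.73 on the low arrays and 8.59 and 8.13 on the high arrays. Both high arrays lay above the other 4. Rfc1 was 1.91 higher in high than in negative cells (limma adjusted p = 0.0121) and 1.68 higher than in low cells (limma adjusted p = 0.00893). The first call was lost without either negative array (adjusted p = 0.11 and 0.119), and the second without either low array (adjusted p = 0.0649 and 0.054).

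**Figure D3:**
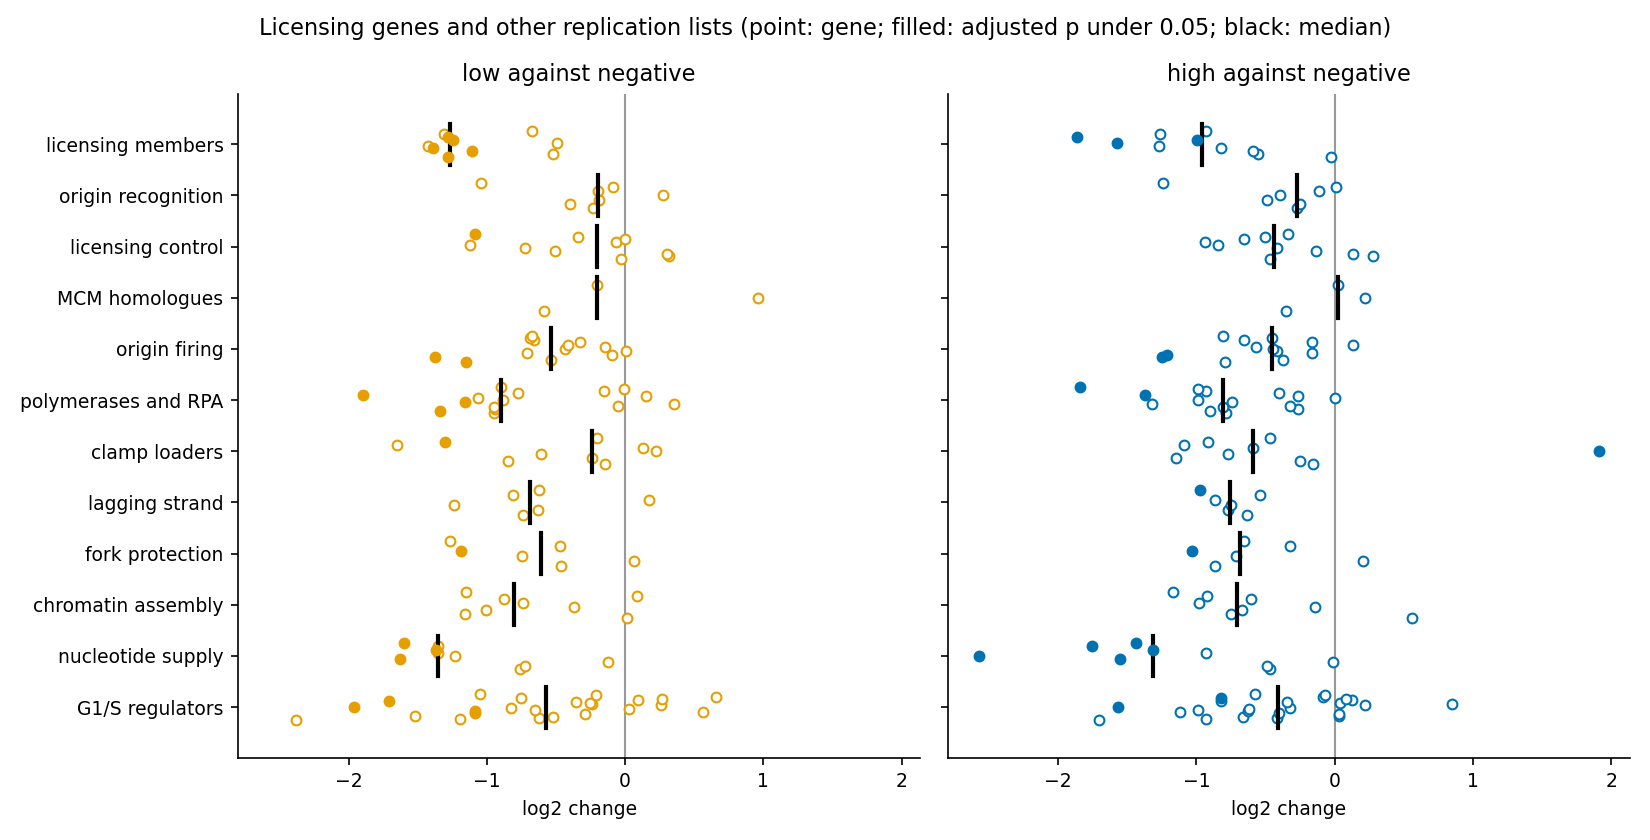
Log2 change (x axis) of the licensing genes and of 11 lists of other replication genes (y axis) in low against negative and high against negative cells; points are genes, filled points passed an adjusted p of 0.05 and black bars are list medians. The medians of the licensing genes are -1.26 and -0.96 and those of the nucleotide supply genes are -1.35 and -1.31, while Rfc1 among the clamp loaders lies at 1.91 in high cells.

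Genes of deoxynucleotide supply had the lowest medians of these lists, -1.35 in low and -1.31 in high cells. Of 9 measured, 3 fell in low and 5 in high cells. Mthfd1 and Shmt1, of folate metabolism, fell by 1.63 and 1.37 in low cells (limma adjusted p = 0.00654 and 0.0082) and by 1.55 and 1.31 in high cells (limma adjusted p = 0.0163 and 0.0172). Tyms, which makes thymidylate, fell by 1.60 in low and 1.44 in high cells (limma adjusted p = 0.0267 and 0.0447). Rrm1, the large subunit of ribonucleotide reductase, fell by 2.57 in high cells (limma adjusted p = 0.0268), with an SD of 0.97 between the 2 high arrays, of which 1 was above background. Tk1, thymidine kinase, fell by 1.75 in high cells (limma adjusted p = 0.044). Each of these calls was lost without either negative array, some in other fits too (adjusted p of the lost calls from 0.0524 to 0.227).

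Of 24 regulators of the passage from G1 to S phase, 4 fell in low cells and 2 in high cells. E2f8, an E2F repressor that is itself induced in the cycle, fell by 1.96 in low cells (limma adjusted p = 0.0039) and by 1.57 in high cells (limma adjusted p = 0.0161). E2f2, an activator, fell by 1.09 in low cells (limma adjusted p = 0.0191) and differed by -0.41 in high cells (limma adjusted p = 0.244). Myc fell by 1.70 in low cells (limma adjusted p = 0.0374) and differed by -0.82 in high cells (limma adjusted p = 0.226). E2f4 fell by 1.09 in low cells (limma adjusted p = 0.0267), and Rbl1, a pocket protein gene, fell by 0.82 in high cells (limma adjusted p = 0.0476), a call lost in 11 of 14 alternative fits (adjusted p from 0.0579 to 0.246). The calls of E2f2, E2f4 and Myc were lost without any 1 of the negative or low arrays (adjusted p of the lost calls from 0.0521 to 0.221). E2f8 was lost in low cells without negative replicate 2 (adjusted p = 0.051) and in high cells without either negative array (adjusted p = 0.108 and 0.14).

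Mitotic genes, measured in the same fit, were also lower in both gates. Of 17, 15 fell in low cells and 12 in high cells, with medians of -1.85 and -1.29. In low cells 4 and 2 of them were called without negative replicate 1 and 2, and 7 without low replicate 2. In high cells 0 were called without either negative array, and 6 without either low array or high replicate 2. Kif11, a spindle motor, fell by 2.37 in low cells (limma adjusted p = 0.00238) and by 1.71 in high cells (limma adjusted p = 0.014), the second call lost without either negative array (adjusted p = 0.111 and 0.117). Cdk1, the mitotic kinase, fell by 2.15 in low cells (limma adjusted p = 0.00324), a call kept in each of 14 alternative fits. It fell by 1.11 in high cells (limma adjusted p = 0.0355), a call lost in 10 of 14 alternative fits (adjusted p from 0.0529 to 0.217). In high against low cells the 17 mitotic genes lay above 0, as did 12301 of all 19938 genes, with medians of 0.49 and 0.13. Cdk1 was called higher there, by 1.04 (limma adjusted p = 0.0398). That call was lost in 9 of 14 alternative fits (adjusted p from 0.0547 to 0.202). No test of the difference between the mitotic and licensing genes was made.

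Genes with the profile most like that of the members were sought among 12881 other genes above background on average. Likeness was the root mean square difference over the 6 arrays between a gene's centred values and the mean of the 10 members. The 8 nearest were Capn1, Cdca7l, Nup85, Atp5o, Kif20b, Rer1, Mkks and Tomm70a, at distances from 0.06 to 0.11, and none of them is on the replication lists. The distances of the members from their own mean ran from 0.13 for Mcm5 and 0.18 for Pcna to 0.51 for Mcm4 and 0.53 for Cdc6. The 8 genes were picked for the smallest distances among 12881, while the members were chosen by name. Smaller distances for the 8 genes follow from that choice and cannot show how alike the members are. These distances describe 6 arrays that share a normalization.

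**Figure D4:**
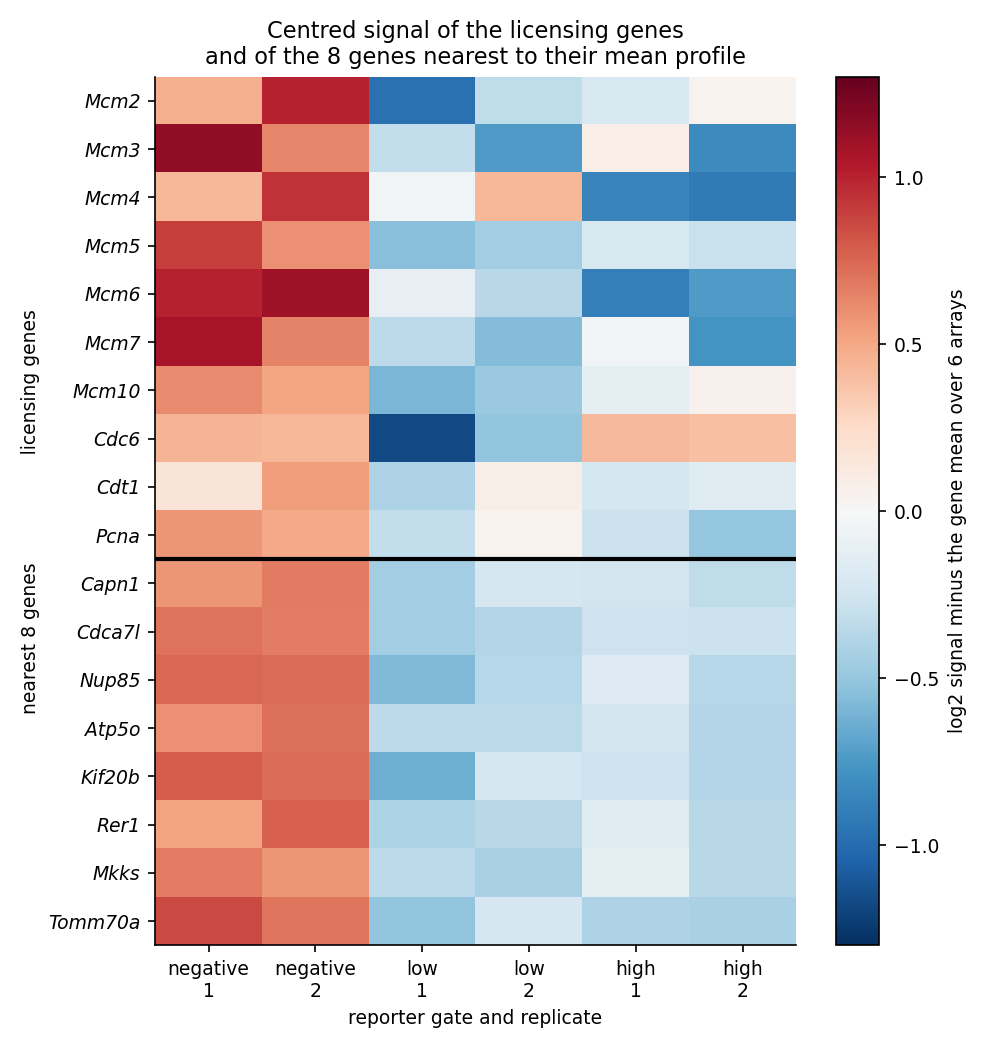
Log2 signal minus the gene's mean over the 6 arrays (colour), for the 10 licensing genes and the 8 genes nearest to their mean profile (y axis), on each array of the 3 reporter gates (x axis). The negative arrays are above the gene mean in each row, while Mcm4 stays above it on low replicate 2, at 0.43, and Cdc6 on both high arrays, at 0.43 and 0.39.

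Markers of some other cell types moved with the gates, and the part of these cells in the changes of the licensing genes was not tested. Over all 19938 genes, 681 were called higher and 507 lower in low against negative cells. In high against negative cells 272 were called higher and 667 lower. Of 5 goblet and tuft markers 0 were called in low or in high cells. Of 6 enteroendocrine markers, 6 rose in low cells, with a list mean of 4.84 to 4.91 on negative, 10.51 to 10.56 on low and 5.59 to 6.13 on high arrays, and Neurod1, Scg2 and Rfx6 were not above background on the negative arrays. Of 6 Paneth markers, 6 rose in low and 6 in high cells, and the list mean was 8.63 to 8.85 on negative, 11.86 to 12.11 on low and 12.52 to 12.79 on high arrays. Of 6 T cell markers, 5 rose in low and 5 fell in high cells, at 7.71 to 7.94 on negative, 9.08 to 9.28 on low and 6.09 to 6.28 on high arrays. Cd2 of that list was not above background on the negative arrays. Of 5 stem cell markers, 1 fell in low and 1 rose in high cells, with a list mean of 7.82 to 8.05 on negative, 6.89 to 7.14 on low and 7.77 to 7.97 on high arrays. Of 6 enterocyte markers, 0 were called in low cells and Sis fell in high cells, with a list mean of 10.59 to 11.23 on negative, 9.68 to 10.85 on low and 9.15 to 10.01 on high arrays. The 4 B and plasma cell markers averaged 5.597 to 6.06 on negative, 4.26 to 4.56 on low and 4.07 to 4.22 on high arrays. Jchain fell in both gates, Cd79a in low and Cd79b in high cells. Of 8 myeloid and mast cell markers, Kit and Lyz2 rose and Mcpt1 and Mcpt2 fell in low cells, and Kit rose and Mcpt1 and Mcpt2 fell in high cells. That list averaged 5.74 to 5.80 on negative, 5.32 to 5.54 on low and 5.32 to 5.54 on high arrays. Of 8 stromal and endothelial markers 0 were called in either comparison, the list averaged 4.10 to 4.23 on negative, 4.21 to 4.32 on low and 4.32 to 4.46 on high arrays, and 3, 4 and 4 lay above background on both arrays of the gate. These counts too changed without a negative array, in fits that leave that gate with a lone array and less precision. Without negative replicate 1 and 2, the T cell markers called were 0 and 1 in low cells and 0 and 0 in high cells, and the Paneth markers called were 6 and 5 in low cells and 4 and 3 in high cells. The stem cell calls and those of Sis and Krt20 were lost without either negative array, as were those of the myeloid and mast cell list except 1 in low cells without negative replicate 1. Of the B and plasma cell calls, 1 of 2 was left in each gate. The 6 enteroendocrine calls in low cells were kept without any 1 array.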

How the data were processed

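RNA of 6 sorted samples was measured on 1-colour arrays. The deposited values are log2 signals; the submitters' processing notes name RMA and Affymetrix Expression Console (1.3.0.187) and no further option. Symbols came from the platform annotation, updated by gene ID through a GRCm38.p6 gene table. Each gene was represented by its probe set of highest mean signal, giving 19938 genes. They were fitted with limma 3.58.1 in R 4.3.3 as 3 group means over the 6 arrays, with two-sided tests adjusted over all genes. Errors of changes are SEs. The p-values rest on the spread between 2 pools a gate, taken over the 3 gates together, and the number of arrays limits precision. Each gene's variance was also drawn toward that of all genes (empirical Bayes), so a comparison of 2 gates depends on the third gate and on other genes. The text names each member, up to 4 genes of each replication list and of the mitotic genes with the smallest p in each comparison with the negative gate, and the 8 genes nearest the members. The members and lists were chosen with earlier results of these data known. The fit was also run on simulated data with independent noise and no array or pool effect. That run cannot show how the fit does on 2 real pools a gate. Alternatives changed the normalization, variance model, weights, filter, probe set rule, threshold, block and arrays.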

Additional observations from a re-analysis of the deposited data

How the results depend on the processing

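With 2 arrays a gate, leaving out 1 array leaves a gate with a lone array, which is assumed to vary like the others. Of the members' changes under the alternatives, 353 kept their direction and their side of the threshold, 40 lost their call, 19 gained one and 8 changed sign. The 353 include changes that were called in neither fit, so they are not a count of kept calls. Among genes above background alone, Mcm3 and Mcm7 were also called in low cells (adjusted p = 0.049 and 0.0401) and Mcm7 in high cells (adjusted p = 0.0497). The sign changes were Cdc6 in high against negative cells with quantile normalization (0.0034) and, in high against low cells, Cdt1 with quantile normalization (0.11), and Mcm3 (-0.05 and -0.31), Mcm7 (-0.06 and -0.32) and Cdt1 (0.21 and 0.0059) without low replicate 2 and without high replicate 1. Over the left-out arrays these 3 ranged from -0.31 to 0.61, from -0.32 to 0.42 and from -0.27 to 0.21. No sign-changed value was called, and the cause was not tested. In low against negative cells, array weights gave 2150 calls among all genes in place of 1188 and 41 among the other replication genes in place of 15, and a threshold of 0.01 gave 353, 3 and, among the members, 0. Without 1 array the counts ranged from 187 to 1761 for all genes, from 0 to 7 for the members and from 0 to 21 for the other replication genes. In high against negative cells, the 939 calls became 561 with these gates fitted alone, 621 with quantile normalization, 620 with array weights and 61 at 0.01. The other replication genes went from 14 to 7, 6, 7 and 0 under the same settings, and the members from 3 to 1 at 0.01. Without 1 array these were 13 to 1919, 0 to 20 and 0 to 5. In high against low cells, the 978 calls became 499 with these gates fitted alone, 607 with array weights and 319 at 0.01, the member calls 0 in each, and the other replication genes went from 4 to 2, 1 and 1, and to 2 with arrays centred on their medians. Without 1 array these were 381 to 1739, 0 to 1 and 0 to 8.

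The labels give the gates the same replicate numbers without saying that a number marks shared animals. For that reason the numbers were not taken as pairs. Deviations of same-numbered arrays correlated at 0.1034, 0.1025 and 0.0788, values that do not settle whether the arrays were paired. With the replicate block, 7 members were called in low against negative cells in place of 5 and 5 in high against negative in place of 3, Mcm3 and Mcm7 being added in each (adjusted p from 0.0177 to 0.0216 and from 0.0306 to 0.0308), and 1 in high against low. Among all genes the block gave 1298, 1065 and 965 calls.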
